A study of Mus musculus with 48 samples.

Results

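The genes described here are 9 transcripts associated with macrophages that live in the peritoneal cavity in the absence of inflammation. They are Gata6, Timd4, Icam2, Rarb, Lyve1, Selp, F5, Alox15 and Folr2, chosen by symbol from 51789 gene IDs in the deposited count table, and each symbol matched 1 ID. RNA was measured by 3′ mRNA sequencing (QuantSeq FWD, in which a read marks the 3′ end of a transcript) in 48 libraries of mouse macrophages, 3 libraries in each of 16 groups. Ascites macrophages were F4/80+ cells, sorted with magnetic beads, from peritoneal washes of C57BL/6 mice carrying tumours of the ID8 line, which comes from mouse ovarian surface epithelium, and were taken 45 days after the cells were injected. Their labelled genotype is B6(Cg)-Tyrc-2J/J. Thioglycollate macrophages were F4/80+ bead-sorted peritoneal cells of intact mice labelled wild-type C57BL/6, taken 4 days after an injection of 3% thioglycollate (1 ml), which irritates the cavity so that monocytes enter it.

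Bone marrow-derived macrophages were grown from marrow of wild-type (WT) or p53 knockout (KO) C57BL/6 mice for 6 days in 10 ng/mL M-CSF, the macrophage growth factor. They were used as M0 cells, as M1 cells after 24 h of LPS (100 ng/mL) and IFN-γ (50 ng/mL), or as M2 cells after 24 h of IL-4 and IL-13 (10 ng/mL each). Each of the 8 populations was incubated for 4 h with DMSO vehicle or with 10 µM AP-3-84, a compound known here only by its code. The sources used here do not give ages, numbers of animals or the way the p53 allele was disrupted. Nothing says that the 3 libraries of a group came from separate animals or cultures, so p-values measure the spread between libraries, which may be technical. Ascites and thioglycollate groups differ in tumour, in irritant and in labelled genotype at once, and these cannot be told apart.

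Resident macrophages of the peritoneal cavity are maintained largely without replacement from blood monocytes, and inflammation makes many of them disappear from lavage fluid while monocyte-derived cells arrive. GATA6 is the transcription factor that sets their tissue-specific programme, and it is induced by retinoic acid, which acts through receptors such as RARβ, encoded by Rarb. Other members encode products on which these cells are recognised. TIM-4 (Timd4) binds phosphatidylserine on dying cells, ICAM-2 and P-selectin (Selp) are adhesion molecules, and LYVE-1 binds hyaluronan. Factor V (F5) is a secreted clotting cofactor, 12/15-lipoxygenase (Alox15) is an enzyme that oxidises fatty acids, and folate receptor β (Folr2) binds folate.

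The total count was 15532373 to 19417581 per peritoneal library and 3081707 to 4645148 per bone marrow-derived library, so a transcript of low abundance was far more precisely measured in the former. Levels are given as CPM, counts per 1000000 counts of the library, after TMM scaling, which adjusts library totals for differences in composition. The 8 macrophage markers Adgre1, Csf1r, Cd68, Lyz2, Mertk, Fcgr1, C1qa and Itgam were detected in all 16 groups. Their summed level was 24300 to 35200 CPM in peritoneal libraries and 6080 to 47600 CPM in bone marrow-derived ones. As a check of the genotype labels, Trp53 spanned 5.4 to 13.4 CPM over 9 WT vehicle libraries and 2.77 to 9.35 CPM over 9 KO ones, and 3′ reads outside a deleted stretch do not test its loss. The p53 target Ccng1 spanned 94.4 to 179 CPM in WT and 24.9 to 38.1 CPM in KO vehicle libraries, with no overlap.

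Promoter sequences are shown for 3 of the 4 members called between the peritoneal sources both in vehicle and in AP-3-84 libraries (Folr2, Timd4 and F5), for the retinoic acid receptor gene Rarb, and for Selp as the neighbour of F5. They are the 250 bases before each RefSeq transcript start (GRCm38.p6), 5′ to 3′ on the gene's strand. Folr2 has 2 such starts. Capitals mark matches, on either strand, to the first GATA core, which reads AGATAA, to the second GATA core, which reads TGATAA, to the nuclear receptor hexamer, which reads AGGTCA and shows as its reverse complement TGACCT where it lies on the other strand, to the retinoid direct repeat, which is GTTCA given again after 6 bases of any kind, and to the ETS core, which reads GGAAGT. These motifs do not overlap in the windows shown.
Folr2, chr7:101857191-101857440, minus strand: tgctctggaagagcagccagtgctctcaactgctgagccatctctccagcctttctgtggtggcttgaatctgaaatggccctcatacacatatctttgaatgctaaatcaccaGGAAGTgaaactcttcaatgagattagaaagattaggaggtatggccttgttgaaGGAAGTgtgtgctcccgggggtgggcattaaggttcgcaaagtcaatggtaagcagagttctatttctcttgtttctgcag
Folr2, chr7:101845332-101845581, minus strand: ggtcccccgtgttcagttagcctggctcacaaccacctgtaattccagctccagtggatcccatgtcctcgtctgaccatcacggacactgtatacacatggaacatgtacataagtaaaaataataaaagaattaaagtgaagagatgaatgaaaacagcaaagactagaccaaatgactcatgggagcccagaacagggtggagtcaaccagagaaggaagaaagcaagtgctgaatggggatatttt
Timd4, chr11:46810549-46810798, plus strand: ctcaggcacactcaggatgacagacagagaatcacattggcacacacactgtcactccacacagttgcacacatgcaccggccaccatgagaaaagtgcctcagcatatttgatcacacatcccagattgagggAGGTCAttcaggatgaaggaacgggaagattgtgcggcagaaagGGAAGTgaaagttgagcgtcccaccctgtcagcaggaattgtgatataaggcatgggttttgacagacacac
Rarb, chr14:16575477-16575726, minus strand: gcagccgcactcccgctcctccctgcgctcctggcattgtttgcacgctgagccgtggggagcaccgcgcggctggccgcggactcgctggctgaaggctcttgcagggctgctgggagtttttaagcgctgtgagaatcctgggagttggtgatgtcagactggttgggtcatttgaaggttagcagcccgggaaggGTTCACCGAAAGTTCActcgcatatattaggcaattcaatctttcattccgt
F5, chr1:164151585-164151834, plus strand: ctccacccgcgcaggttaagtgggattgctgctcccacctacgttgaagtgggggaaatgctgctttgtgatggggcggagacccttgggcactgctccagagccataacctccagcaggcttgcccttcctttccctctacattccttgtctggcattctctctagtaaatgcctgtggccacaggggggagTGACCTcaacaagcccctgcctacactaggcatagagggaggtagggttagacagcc
Selp, chr1:164115014-164115263, plus strand: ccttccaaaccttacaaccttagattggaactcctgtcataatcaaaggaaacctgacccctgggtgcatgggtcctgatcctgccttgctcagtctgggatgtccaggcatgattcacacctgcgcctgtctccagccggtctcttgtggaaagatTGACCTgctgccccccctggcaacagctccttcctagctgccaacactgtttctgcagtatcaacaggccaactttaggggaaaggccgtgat
Of 32851 mouse promoter windows of this length, 9.99% held AGATAA, 7.94% TGATAA, 14.0% AGGTCA, 19.7% GGAAGT and 0.067% the direct repeat. Rarb held the direct repeat, with its first base 52 bases before the start. The hexamer began 116 bases before the start of Timd4, 57 before that of F5 and 93 before that of Selp. GGAAGT began 72 bases before the start of Timd4 and 136 and 81 bases before the first Folr2 start. Neither GATA core was in these 6 windows. A match of letters is a description and not a site of binding. The promoters of Gata6, Icam2, Lyve1 and Alox15 are not shown.

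By role, the regulators are Gata6 on chromosome 18 (11052064 to 11085635, plus strand) and Rarb on chromosome 14 (16430839 to 16819156, minus strand), in GENCODE M21 coordinates on GRCm38, which need not be the build behind the counts. The receptors for dying cells, hyaluronan and folate are Timd4 on chromosome 11 (46810800 to 46844332, plus), Lyve1 on chromosome 7 (110850607 to 110863239, minus) and Folr2 on chromosome 7 (101839988 to 101857194, minus). The adhesion molecules are Icam2 on chromosome 11 (106377656 to 106388075, minus) and Selp on chromosome 1 (164115264 to 164150026, plus). The secreted cofactor F5 (chromosome 1, 164151838 to 164220277, plus) starts 1812 bp beyond the end of Selp. The enzyme Alox15 is on chromosome 11 (70344152 to 70352031, minus).

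Which of these genes differed between ascites and thioglycollate macrophages was asked first in the vehicle libraries. Transcripts of 3 receptor genes, Folr2, Timd4 and Lyve1, were higher in ascites macrophages, by 5.42, 4.83 and 3.11 times, while F5 was lower and the transcription factor gene Gata6 was higher by 1.26 times. In all, 5 of the 9 were called (edgeR quasi-likelihood test, Benjamini-Hochberg adjusted p under 0.05), 4 higher and 1 lower in ascites. In this comparison 33.7% of the 16955 genes tested were called, 20.3% higher and 13.4% lower. The higher share of these calls was 60.3%, and 70.3% with scaling by total counts alone. All 9 members passed the filter on low counts. The median log2 fold change of the 9 was 0.34, beside 0.05 over all genes tested. In bulk RNA, fewer cells of a type and less RNA per cell cannot be told apart, here and in the comparisons that follow.

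Folr2, the folate receptor, was at 188, 192 and 209 CPM in the 3 ascites vehicle libraries and at 35.1, 38.1 and 38.3 CPM in the 3 thioglycollate vehicle libraries. Every ascites library lay far above every thioglycollate library. Its log2 fold change was 2.44 (SE 0.0818, edgeR adjusted p = 2.25e-13). With counts of 553 to 3987 per peritoneal vehicle library, Folr2 had the most reads of the 9 genes in these libraries. Its annotated neighbour Folr1, 1137 bp away and encoding folate receptor α, was at 4.14 ± 0.566 CPM (SD, n = 3) in ascites and 0.508 ± 0.144 CPM in thioglycollate macrophages. Reads of the antisense gene Gm10602, with 257 counts over the 12 peritoneal libraries, could not be set apart from those of Folr2 if strand was not used in counting, and the sources used here do not say.

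Timd4, the phosphatidylserine receptor, was at 4.28, 5.96 and 4.96 CPM in ascites and at 1.27, 1.15 and 0.815 CPM in thioglycollate macrophages. The groups did not overlap. The log2 fold change was 2.27 (SE 0.307, edgeR adjusted p = 1.23e-05).

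Lyve1, the hyaluronan receptor, was at 1.48, 0.961 and 1.01 CPM in ascites and at 0.508, 0.242 and 0.38 CPM in thioglycollate macrophages. Again the groups did not overlap, but these levels rest on 4 to 26 counts per peritoneal library. The log2 fold change was 1.64 (SE 0.586, edgeR adjusted p = 0.0371). The call was lost when ascites vehicle library 1, 2 or 3 was left out (adjusted p = 0.139, 0.0571 and 0.0613) and when thioglycollate vehicle library 2 or 3 was left out (0.128 and 0.0893).

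Gata6, the regulator of the resident programme, was at 14.2, 13.1 and 14.1 CPM in ascites and at 12.4, 11.0 and 10.2 CPM in thioglycollate macrophages. All 3 ascites libraries were above all 3 thioglycollate libraries, by a small margin. The log2 fold change was 0.34 (SE 0.124, edgeR adjusted p = 0.0433). This call was lost in 10 of 13 alternative analyses, over which the adjusted p ranged from 0.0104 to 0.695. Among them, it was lost without ascites vehicle library 1, 2 or 3 (adjusted p = 0.125, 0.0558 and 0.0967) and without thioglycollate vehicle library 2 or 3 (0.106 and 0.168). It was also lost with DESeq2 (0.0988).

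Rarb, the retinoic acid receptor gene, was at 1.03, 1.3 and 0.427 CPM in ascites and at 1.08, 1.21 and 0.815 CPM in thioglycollate macrophages. The groups overlapped (edgeR adjusted p = 0.917, log2 fold change −0.13, SE 0.569). Rarb overlaps Top2b on the opposite strand, a topoisomerase gene with 18505 counts over the peritoneal libraries against 194 for Rarb, so its few reads are uncertain where strand was not used.

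F5, the clotting cofactor, went the other way. It was at 12.0, 12.1 and 14.6 CPM in ascites and at 24.9, 21.6 and 21.3 CPM in thioglycollate macrophages, with no overlap. The log2 fold change was −0.77 (SE 0.138, edgeR adjusted p = 0.000248). Its neighbour Selp, which encodes P-selectin, was at 2.91, 3.27 and 2.67 CPM in ascites and at 2.79, 3.03 and 3.15 CPM in thioglycollate macrophages, which overlap (log2 fold change 0.02, or −0.02 with median-ratio scaling, SE 0.251, edgeR adjusted p = 0.971).

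Alox15, the lipoxygenase, was at 1.71, 2.35 and 1.87 CPM in ascites and at 1.46, 1.21 and 0.543 CPM in thioglycollate macrophages. The groups did not overlap, yet the gene was not called (edgeR adjusted p = 0.119, log2 fold change 0.93, SE 0.435). Icam2 was at 11.8, 10.7 and 13.8 CPM in ascites and at 11.0, 11.0 and 9.45 CPM in thioglycollate macrophages. Those groups overlapped, and Icam2 was not called (edgeR adjusted p = 0.303, log2 fold change 0.24, SE 0.163). Counting all 9, the 3 ascites libraries lay above the 3 thioglycollate libraries for 5 genes and below for 1, beside 47.2% of all genes tested with no overlap in either direction.

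**Figure D1:**
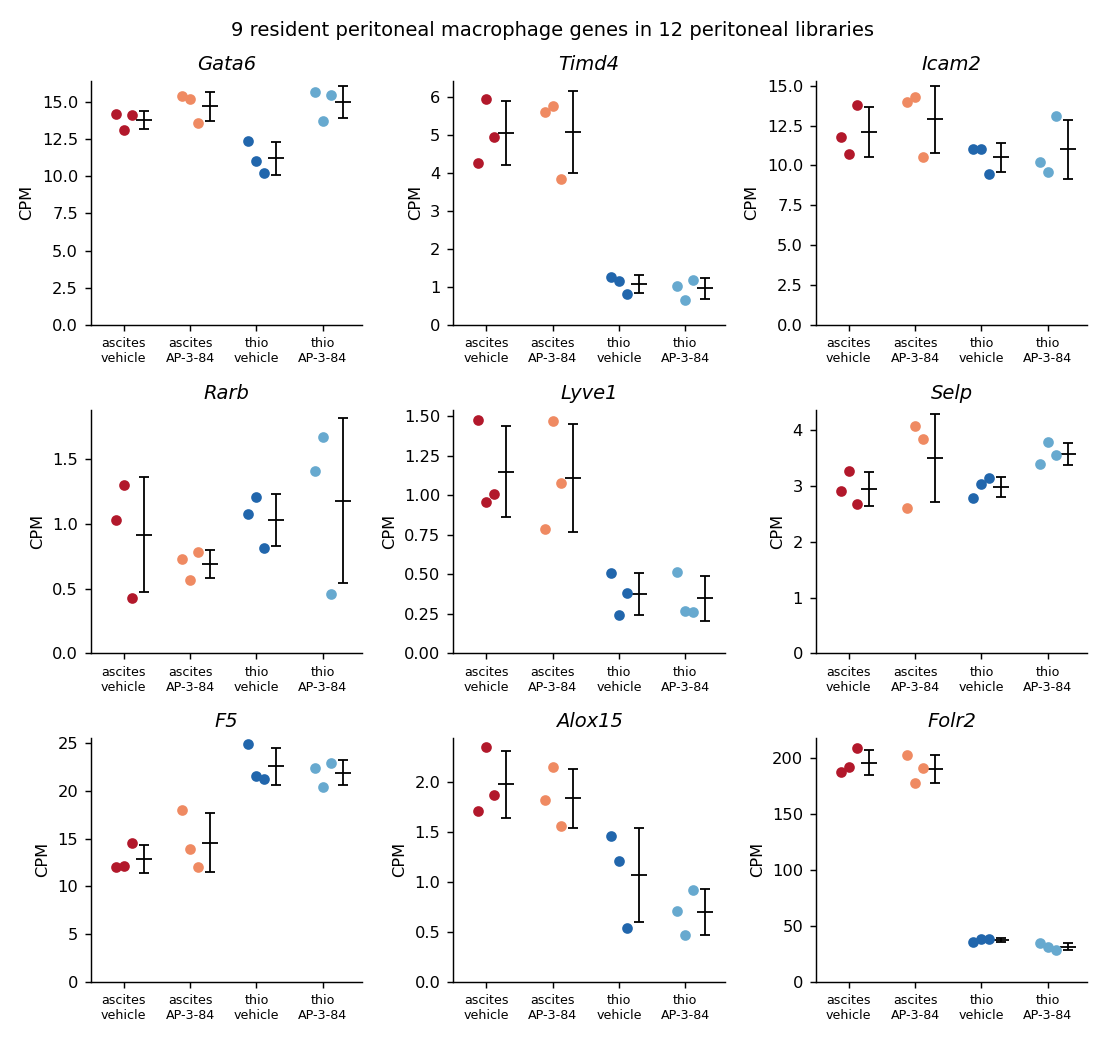
Points are CPM of the 9 genes in the 12 peritoneal libraries, 3 per group, on axes starting at 0, with the mean and SD of each group drawn to the right of its points. Folr2, Timd4 and Lyve1 are higher in both ascites groups, F5 is higher in both thioglycollate groups, and the 2 sources overlap for Selp and Icam2.

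The same contrast was repeated in the AP-3-84 libraries, which share no library with the vehicle contrast. Again 5 of the 9 genes were called, 4 higher and 1 lower in ascites, with 36.8% of all genes tested called, 22.9% higher and 13.9% lower. Folr2, Timd4, Lyve1 and F5 differed in the same direction as in vehicle. Alox15 was called here and Gata6 was not.

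Folr2 was at 203, 178 and 191 CPM in ascites with AP-3-84 and at 34.9, 30.9 and 28.5 CPM in thioglycollate macrophages with AP-3-84 (edgeR adjusted p = 9.62e-14, log2 fold change 2.65, SE 0.0831). Timd4 was at 5.63, 5.77 and 3.84 CPM against 1.03, 0.667 and 1.18 CPM (edgeR adjusted p = 7.32e-06, log2 fold change 2.44, SE 0.315). Neither gene's groups overlapped. Lyve1 was at 0.787, 1.47 and 1.08 CPM against 0.514, 0.267 and 0.263 CPM (log2 fold change 1.70, edgeR adjusted p = 0.0317). Its call was lost without ascites AP-3-84 library 2 or 3 (adjusted p = 0.118 and 0.0508) and without thioglycollate AP-3-84 library 2 or 3 (0.0931 and 0.093). Alox15 was at 1.82, 2.15 and 1.56 CPM against 0.706, 0.467 and 0.92 CPM, with no overlap (edgeR adjusted p = 0.0194, log2 fold change 1.43, SE 0.458). Its call was lost without ascites library 2 (0.0642) and without thioglycollate library 1 or 2 (0.0507 and 0.0775).

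F5 was at 18.0, 13.9 and 12.0 CPM in ascites with AP-3-84 and at 22.4, 20.4 and 22.9 CPM in thioglycollate macrophages with AP-3-84. The groups did not overlap, and F5 was lower in ascites (edgeR adjusted p = 0.00519, log2 fold change −0.54, SE 0.139). Gata6 was at 15.4, 15.2 and 13.6 CPM against 15.7, 13.7 and 15.5 CPM, which overlap (edgeR adjusted p = 0.893, log2 fold change 0.03, SE 0.123). Icam2, Rarb and Selp were not called, with log2 fold changes of 0.28, −0.72 and 0.02. For 4 genes the ascites libraries lay above the thioglycollate libraries and for 1 below, beside 47% of all genes with no overlap. The median log2 fold change of the 9 genes was 0.28, beside −0.01 over all genes.

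**Figure D2:**
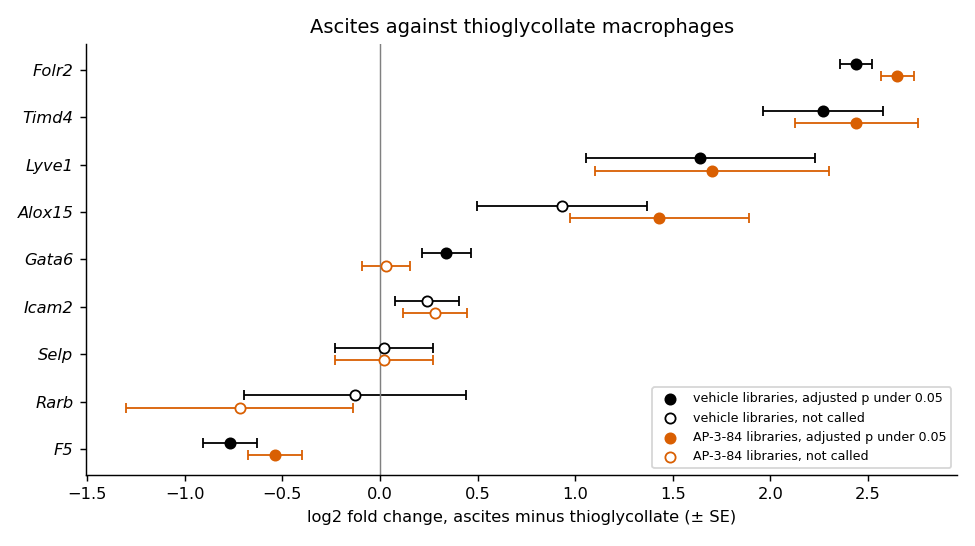
Points are log2 fold changes of the 9 genes, ascites minus thioglycollate, with bars of 1 SE, in vehicle (black) and AP-3-84 (orange) libraries, filled where the adjusted p was under 0.05. Folr2 and Timd4 lie above 2 in both, F5 lies below 0 in both, and Gata6 is filled in vehicle alone.

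RNA of other cells of the cavity differed between the same groups. The 8 mesothelial markers (Msln, Upk3b, Upk1b, Lrrn4, Wt1, Krt19, Krt8 and Krt18) summed to 215 to 256 CPM in ascites vehicle libraries and 2.66 to 4.63 CPM in thioglycollate ones, and all 8 were called higher in ascites. With AP-3-84 the sums were 244 to 265 and 2.96 to 4.07 CPM, and Msln was at 0 counts in thioglycollate vehicle libraries. The part of mesothelial RNA in the differences of the 9 genes was not tested. Of 11 endothelial markers, which matter for Icam2, Selp and Lyve1, Tek and Cldn5 were at 0 in vehicle libraries of both sources. The summed endothelial level was 24.3 to 35.3 CPM in ascites and 48.9 to 56.2 CPM in thioglycollate macrophages. Of 8 platelet markers, which matter for Selp and F5, Gp1ba, Gp9 and Tubb1 were among those at 0 in all 4 peritoneal groups, and the sum was 3.37 to 6.35 CPM in ascites and 0.635 to 1.41 CPM in thioglycollate vehicle libraries. Of 9 eosinophil and mast cell markers, relevant to Alox15, Epx and Mcpt4 were at 0 in all 4 peritoneal groups. In vehicle libraries 2 of the 9 were at 0 in ascites and 5 in thioglycollate macrophages, and the others were detected. The part of endothelial, platelet, eosinophil and mast cell RNA in the levels of the 9 genes was not tested.

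Other marker sums in vehicle libraries were 1.03 to 4.11 CPM in ascites and 2.28 to 5.14 CPM in thioglycollate macrophages for B cells, 0.769 to 1.92 and 0.317 to 0.968 CPM for T cells, and 28.6 to 32.4 and 61.4 to 65.4 CPM for neutrophils. A list of 7 markers of epithelial tumours held Epcam, Krt7, Cdh1, Cldn3, Cldn4, Cldn7 and Muc16. Their sum was 3.27 to 4.96 CPM in ascites and 2.41 to 3.45 CPM in thioglycollate macrophages, with Epcam, Cldn3 and Cldn4 at 0 in the latter. Whether ID8 cells express these markers or the mesothelial ones was not tested, so these sums do not measure tumour RNA. For eosinophils and mast cells the sums were 3.26 to 3.84 and 6.73 to 7.06 CPM.

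Gene lists around the members were read in ascites against thioglycollate vehicle libraries by the same calls, beside the 20.3% of genes called higher and 13.4% called lower. Of 20 other genes of resident peritoneal macrophages, 5 were higher and 9 lower in ascites (median log2 fold change −0.3, against 0.05 over all genes). Cxcl13, a B cell chemoattractant, was at 37.4 ± 3.25 CPM (SD, n = 3) in ascites and 1.99 ± 0.81 in thioglycollate macrophages (log2 fold change 4.28), Fcna, the lectin ficolin A, was higher by 1.55, and the transcription factor Klf2 by 0.78. Tgfb2, a growth factor of the TGF-β family, fell by 2.86, from 101 ± 0.135 CPM in thioglycollate to 13.5 ± 2.66 CPM in ascites macrophages. The surface receptor gene Cd93 and the transcription factor gene Bhlhe40 were also lower, with log2 fold changes of −2.21 and −1.8. The list thus held genes called in both directions, as the 9 members did.

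Of 12 genes of resident macrophages across tissues, 3 were higher (Cbr2, Maf and Mrc1, by log2 0.84, 0.71 and 0.59) and 4 lower in ascites, among them Igf1 (−0.72), Gas6 (−0.62) and Ninj1 (−0.36), with a median of 0.07. Scaling by total counts alone gave 4 higher and 2 lower. Of 16 genes of small peritoneal or monocyte-derived macrophages, 14 were tested, with 12 higher and 2 lower (median 3.03). Ly6c2, a surface antigen of classical monocytes, was at 301 ± 16.1 CPM (SD, n = 3) in ascites and 1.24 ± 1.4 CPM in thioglycollate macrophages (log2 fold change 8.01), and Plac8 was higher by 4.57. The exceptions were Chil3, a chitinase-like protein gene (−4.95), and Itgax, the integrin CD11c (−0.36).

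The retinoid pathway feeds the receptor encoded by Rarb. Of 18 genes in it, 12 were tested, with 4 higher and 2 lower (median 0.24). Aldh1a1, an enzyme that makes retinoic acid, was at 16.6 ± 0.21 CPM (SD, n = 3) in ascites and 0.0997 ± 0.0955 CPM in thioglycollate macrophages (log2 fold change 7.33), and Rdh10, which makes retinaldehyde, was higher by 1.33. Dhrs3, which turns retinaldehyde back to retinol, fell by 1.28 and the receptor gene Rxra by 0.55. The mesothelial markers moved with Aldh1a1, and their part in it was not tested.

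For the uptake of dying cells, the process in which TIM-4 acts, 15 of 18 genes were tested, with 5 higher and 6 lower (median −0.16), and 6 higher and 5 lower with scaling by total counts alone. The receptor gene Axl (log2 fold change 3.92) and the complement genes C1qa (1.15) and C1qb (0.85) were higher in ascites. Mfge8, which bridges phosphatidylserine to integrins, was at 52.7 ± 3.07 CPM (SD, n = 3) in ascites and 1970 ± 31.9 CPM in thioglycollate macrophages (log2 fold change −5.19). Itgb3 (−2.12), its integrin partner, and the scavenger receptor gene Cd36 (−1.2) were lower too.

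Among 25 relatives of the 9 genes by family, 19 were tested, with 10 called higher in ascites and 9 not called (median 0.73). Gata4 was at 5.32 ± 0.598 CPM (SD, n = 3) in ascites and had 0 counts in thioglycollate vehicle libraries, at least 90.3-fold higher in ascites. Gata3 was higher by log2 3.22 and Folr1 by 3.04. Gata4 and Folr1, like the mesothelial markers, were low in thioglycollate libraries, and the part of mesothelial RNA in this was not tested.

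**Figure D3:**
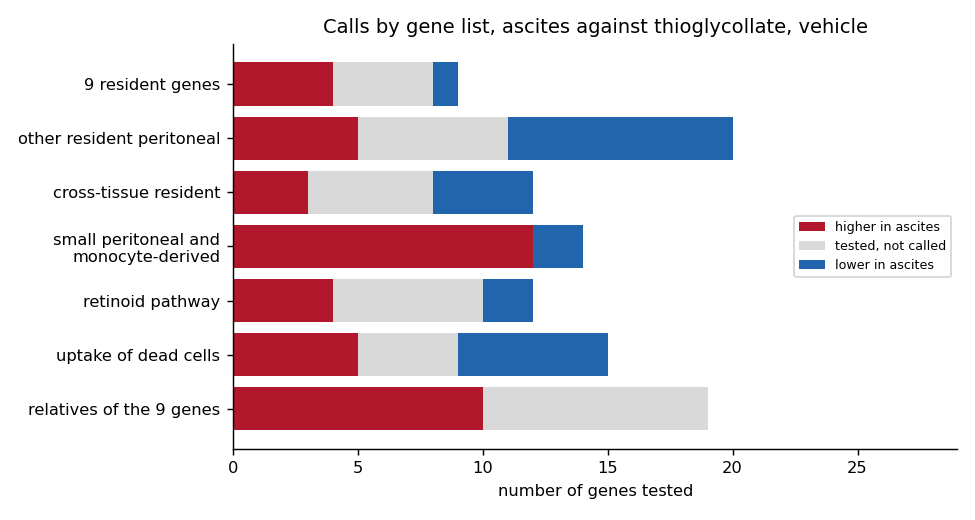
Bars give the number of tested genes per list called higher (red), not called (grey) or called lower (blue) in ascites against thioglycollate vehicle libraries. The list of small peritoneal and monocyte-derived macrophages has 12 of 14 genes higher. The other resident peritoneal list has 5 higher and 9 lower of 20. Over all genes tested, 20.3% were called higher and 13.4% lower.

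Whether AP-3-84 changed the 9 genes within each source was tested against vehicle. In ascites macrophages 0 of 9 were called by edgeR and 0 by DESeq2, with 1.79% of all genes called, and 0 of 9 had an unadjusted p under 0.05, beside 10.6% of all genes. Their log2 fold changes ran from −0.39 (Rarb) to 0.27 (Selp), and the vehicle and AP-3-84 libraries overlapped for all 9, where 15.7% of all genes did not overlap. In thioglycollate macrophages 0 of 9 were called by edgeR and 0 by DESeq2, with 4.32% of all genes called, and 2 of 9 had an unadjusted p under 0.05, beside 15.7% of all genes.

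Those were Gata6 and Folr2. Gata6 was at 12.4, 11.0 and 10.2 CPM with vehicle and 15.7, 13.7 and 15.5 CPM with AP-3-84 in thioglycollate macrophages. The libraries did not overlap, and the difference missed the threshold (edgeR adjusted p = 0.0686, log2 fold change 0.42, SE 0.124). Folr2 was at 35.1, 38.1 and 38.3 CPM with vehicle and 34.9, 30.9 and 28.5 CPM with AP-3-84, also with no overlap (edgeR adjusted p = 0.139, log2 fold change −0.23, SE 0.0817). Selp did not overlap either, at 2.79 to 3.15 CPM with vehicle and 3.4 to 3.8 CPM with AP-3-84 (edgeR adjusted p = 0.68, log2 fold change 0.27, SE 0.252). These 3 of 9 genes stand beside 23.5% of all genes with no overlap. The response in ascites minus that in thioglycollate macrophages was called for 0 of 9 by edgeR and 0 by DESeq2, which gave Lyve1 no adjusted p, with 0.118% of all genes called and 0 of 9 at an unadjusted p under 0.05, beside 7.64% of all genes. For Gata6 that difference was −0.31 (SE 0.174, edgeR adjusted p = 0.719), so its change in the 2 sources was not shown to differ.

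The bone marrow-derived macrophages served as the contrast population. Among the vehicle groups Gata6 had its highest mean level in ascites macrophages, at 13.8 ± 0.601 CPM (SD, n = 3), followed without overlap by thioglycollate macrophages at 11.2 ± 1.13 CPM, and then by KO M2 cells at 0.909 CPM. Gata6 had 0 counts in 24 of the 36 bone marrow-derived libraries and 33 counts in all in the other 12, with at most 6 in 1 library. None of the 9 WT vehicle libraries had a Gata6 count, while 6 of the 9 KO vehicle libraries had 2 to 6. That split did not hold in libraries incubated with the compound. There, WT M2 libraries 1 and 2 had 2 counts each. KO libraries with the compound had 5 counts in M0 library 3, 2 in M1 library 3, and 1 and 3 in M2 libraries 2 and 3. All other libraries with the compound, of both genotypes, had no Gata6 count. The filter on low counts left Gata6 out of the main bone marrow-derived fit, so no genotype difference of Gata6 is reported.

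Timd4, Rarb and Lyve1 were each detected in 2 of the 36 libraries, with 2, 4 and 2 counts in all. Selp was detected in 7 libraries with 15 counts and Alox15 in 5 libraries with 8 counts. In the peritoneal cells all 9 genes were detected in all 12 libraries, the fewest counts being 4 for Lyve1. Over the 3 WT M0 vehicle libraries Gata6, Timd4, Rarb, Lyve1, Selp and Alox15 had 0 counts. Against a floor of 3 counts over that group, which covers counting error only, Gata6 was at least 56.8-fold higher in ascites and at least 46.1-fold higher in thioglycollate macrophages. For Timd4 the bounds were 21.1 and 4.4, for Selp 12.2 and 12.3, and for Alox15 8.23 and 4.32. They were 3.82 and 4.24 for Rarb, and 4.69 and 1.54 for Lyve1.

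F5 and the receptor gene Folr2 were not limited to peritoneal cells. F5 had counts in 32 of 36 bone marrow-derived libraries, with a total of 3 counts in WT M0 vehicle libraries. Its ratio to them was 53 in ascites (95% exact binomial interval 18.0 to 257, counting error only) and 92.6 in thioglycollate macrophages (31.6 to 450.0). The order of vehicle group means for F5 was thioglycollate (22.6 CPM), ascites (12.9), KO M2 (8.85), WT M2 (1.71), KO M1 (1.47), KO M0 (1.17), WT M1 (0.34) and WT M0 (0.243). Only thioglycollate macrophages were free of overlap with the next group in that order.

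Folr2 was detected in all 36 libraries, at 3.88 to 97.6 CPM. Ascites macrophages stood above every bone marrow-derived library, at 188 to 209 CPM, whereas thioglycollate macrophages, at 35.1 to 38.3 CPM, lay within the range of WT M0 cells (97.6, 45.5 and 27.7 CPM). The order of vehicle group means was ascites (196 CPM), WT M0 (56.9), KO M1 (48.5), thioglycollate (37.2), WT M2 (34.6), WT M1 (31.7), KO M2 (31.0) and KO M0 (14.4), and only ascites was free of overlap with the next. Icam2 was detected in all 36 libraries, at 4.4 to 24.7 CPM, against 9.45 to 14.3 CPM in the 12 peritoneal libraries. Its highest vehicle means were in KO M1 (19.6 CPM) and KO M2 cells (18.8 CPM), ahead of ascites macrophages (12.1 CPM).

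In a fit of all 48 libraries, 6 of the 9 genes passed the filter on low counts, and Rarb, Lyve1 and Alox15 did not. Gata6, Timd4 and Selp, at 0 counts in WT M0 vehicle cells, passed only through the peritoneal libraries where they are high, so their calls are not counted and the bounds above describe them. Of the other 3, F5 and Folr2 were called higher in ascites than in WT M0 vehicle cells, where 57.5% of 13815 genes tested were called and the median log2 fold change of all genes was 0.16. In thioglycollate macrophages against the same cells F5 alone of these 3 was called, higher, where 61.8% were called and the median was 0.15. Folr2 had a log2 fold change of 1.78 in ascites (SE 0.485, edgeR adjusted p = 0.00211) and of −0.62 in thioglycollate macrophages (SE 0.48, edgeR adjusted p = 0.269). Without WT M0 vehicle library 1 the latter was 0.03. With no filter on low counts it was −0.6 and was called (adjusted p = 0.00809). Icam2 was not called in ascites (0.59, edgeR adjusted p = 0.0741, or 0.0488 with DESeq2) or thioglycollate macrophages (0.39, edgeR adjusted p = 0.244). The 2 comparisons share their control libraries, and origin, sex of donors, preparation and depth cannot be told apart in them.

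Genes not known as macrophage genes also separated the peritoneal from the marrow-derived libraries. Olfactory receptor genes, 1107 in all and looked at after their names appeared among the genes closest to Selp and Alox15, summed to 448 to 1590 CPM in the 12 peritoneal libraries and to 7.08 to 92.2 CPM in the 36 bone marrow-derived ones. Of them 277 to 429 were detected per peritoneal library and 7 to 25 per bone marrow-derived library. Their part in the higher levels of Gata6, Rarb, Selp, Lyve1, Timd4 and Alox15 in peritoneal libraries was not tested. Between ascites and thioglycollate vehicle libraries 3 of the 194 olfactory receptor genes tested were called higher and 2 lower, with a median log2 fold change of 0.07.

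**Figure D4:**
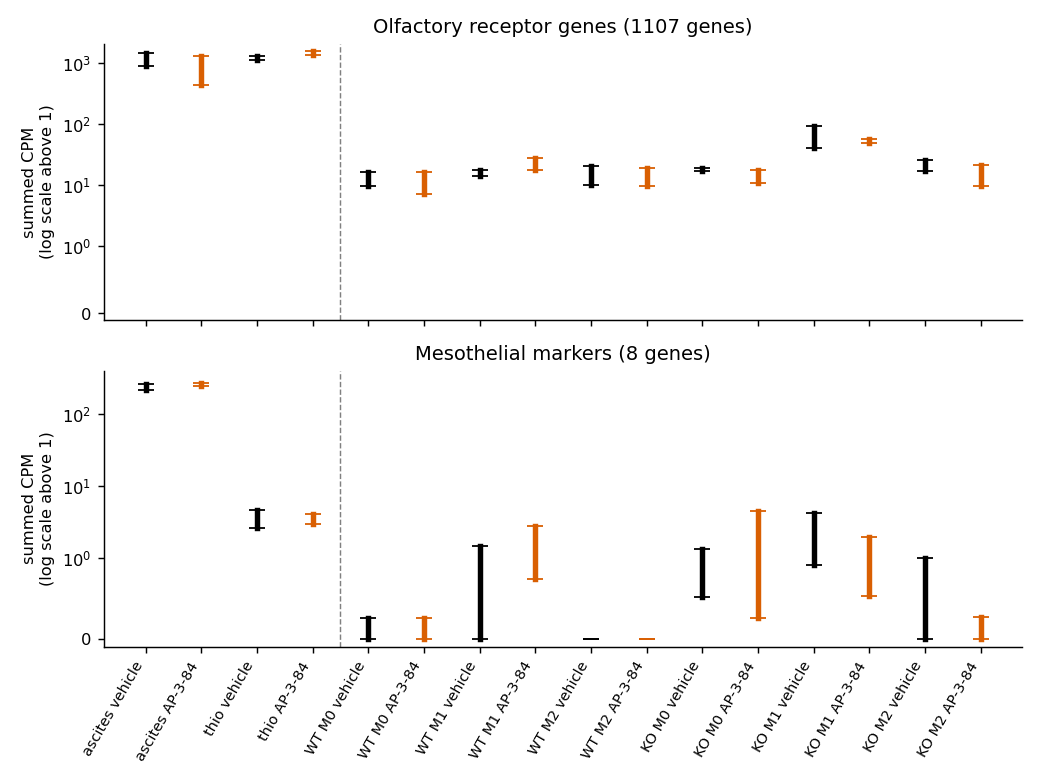
Vertical bars span the lowest and highest library of each group for the summed CPM of 1107 olfactory receptor genes (top) and 8 mesothelial markers (bottom), on axes that are logarithmic above 1 CPM, with vehicle in black and AP-3-84 in orange. Olfactory receptor sums are high in all 4 peritoneal groups, and mesothelial sums are high in the 2 ascites groups.

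Within the bone marrow-derived cells, only Icam2, F5 and Folr2 passed the filter, and 6 of 39 gene and comparison pairs were called over 13 comparisons. Icam2 rose in KO M1 cells against KO M0 cells, from 4.4, 5.16 and 7.94 CPM to 18.1, 16.1 and 24.7 CPM (edgeR adjusted p = 0.000121, log2 fold change 1.70, SE 0.335), where 44.5% of 11779 genes tested were called. It rose to 17.6, 19.4 and 19.5 CPM in KO M2 cells (1.66, SE 0.336, edgeR adjusted p = 0.000211), where 38% were called. Neither set overlapped KO M0. In WT cells the changes of Icam2 from M0 were 0.43 in M1 and 0.6 in M2 (edgeR adjusted p = 0.426 and 0.196), where 15.5% and 23.4% of genes were called. By tests added after these values were seen, the change in KO minus that in WT cells was 1.27 in M1 (edgeR adjusted p = 0.0511) and 1.07 in M2 (edgeR adjusted p = 0.0885), where 20.7% and 27.1% of genes were called, so the genotypes were not shown to differ. Marker sums moved in the same KO cells. The macrophage sum was 33000 to 40800 CPM in M0, 16800 to 26200 CPM in M1 and 6080 to 18800 CPM in M2 cells. Neutrophil markers summed to 571 to 719 CPM in M0, 1010 to 2590 CPM in M1 and 344 to 3320 CPM in M2 cells. Endothelial markers summed to 34.4 to 41.6 CPM in M0, 42.6 to 64.6 CPM in M1 and 106 to 152 CPM in M2 cells, with Tek and Cldn5 at 0 in each. Their part in the values of Icam2 and, below, of F5 and Folr2 was not tested.

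F5 rose in M2 cells of both genotypes. Endothelial marker sums were higher in M2 than in M0 cells in WT libraries too, at 103 to 177 CPM against 19 to 37.8 CPM, with Tek, Cldn5 and Emcn at 0 in both. Platelet markers summed to 5.72 to 107 CPM in WT M2 and 4.62 to 8.19 CPM in WT M0 vehicle libraries. Neutrophil sums there were 453 to 3870 and 275 to 506 CPM. Platelet sums in KO vehicle libraries were 4.27 to 17.3 CPM in M2 and 12.7 to 24 CPM in M0. The part of these RNAs in the F5 values was not tested. In KO cells F5 went from 2.07, 0.607 and 0.821 CPM in M0 to 2.4, 10.6 and 13.5 CPM in M2, with library 1 well below the others (edgeR adjusted p = 0.00289, log2 fold change 2.84, SE 0.747). In WT cells it went from 0, 0.729 and 0 CPM to 3.26, 0.601 and 1.27 CPM, which overlap and rest on 3 and 18 counts (edgeR adjusted p = 0.044, log2 fold change 2.72, SE 1.05, ratio 7.29 with a 95% interval of 2.13 to 38.7). With replicate numbers as a block, the WT value was 2.70 (adjusted p = 0.0558). Same-numbered libraries of these 2 groups deviated together weakly, and no label says that they are paired. The WT call was also lost without WT M0 library 1 or 3 (adjusted p = 0.159 and 0.145) and without WT M2 library 1 or 3 (0.284 and 0.0577).

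Folr2 was lower in KO than in WT M0 vehicle cells, at 17.9, 14.9 and 10.4 CPM against 97.6, 45.5 and 27.7 CPM, with no overlap (edgeR adjusted p = 0.0186, log2 fold change −1.95, SE 0.628), where 33.2% of genes were called. The 3 WT libraries differed widely. Neutrophil markers summed to 275 to 506 CPM in these WT libraries, below the KO ones, and macrophage markers to 30900 to 39800 CPM. Without WT library 1 the value was −1.31 (adjusted p = 0.154), and without KO library 3 it was −1.75 (adjusted p = 0.0812). Folr2 rose in KO M1 against KO M0 cells, to 65.0, 30.1 and 50.3 CPM (1.70, SE 0.629, edgeR adjusted p = 0.0308). That call was lost without KO M0 library 2 or 3 (adjusted p = 0.0656 and 0.103) and without KO M1 library 1 or 3 (0.101 and 0.0617). In M1 and M2 cells KO and WT did not differ at the threshold for any of the 3 genes, where 11.6% and 3.56% of genes were called.

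AP-3-84 gave 0 calls by edgeR among 18 pairs of these 3 genes and 6 bone marrow-derived populations, and 3 pairs had an unadjusted p under 0.05. DESeq2 gave 0 calls among the 16 pairs for which it returned an adjusted p. The share of all genes called was 0.144% in WT M0, 0.017% in WT M1, 1.21% in WT M2, 20.7% in KO M0, 0% in KO M1 (1.75% at an unadjusted p under 0.05) and 0.0509% in KO M2 cells. The 3 pairs were all in KO M2 cells, where 12.3% of all genes had an unadjusted p under 0.05. There F5 was at 4.48, 0.822 and 1.94 CPM with AP-3-84 (edgeR adjusted p = 0.248, log2 fold change −1.88, SE 0.694), Folr2 at 24.3, 6.03 and 3.88 CPM (−1.47, edgeR adjusted p = 0.356) and Icam2 at 19.2, 6.57 and 9.16 CPM (−0.7, edgeR adjusted p = 0.355). Each overlapped the vehicle libraries. The response in KO minus that in WT cells, tested after these values were seen, was called by edgeR for 0 of 9 pairs, where 17% of all genes were called in M0, 0.00849% in M1 and 1.77% in M2 cells. Of these pairs 3 had an unadjusted p under 0.05, all in M2 cells, where 15.4% of all genes did.

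**Figure D5:**
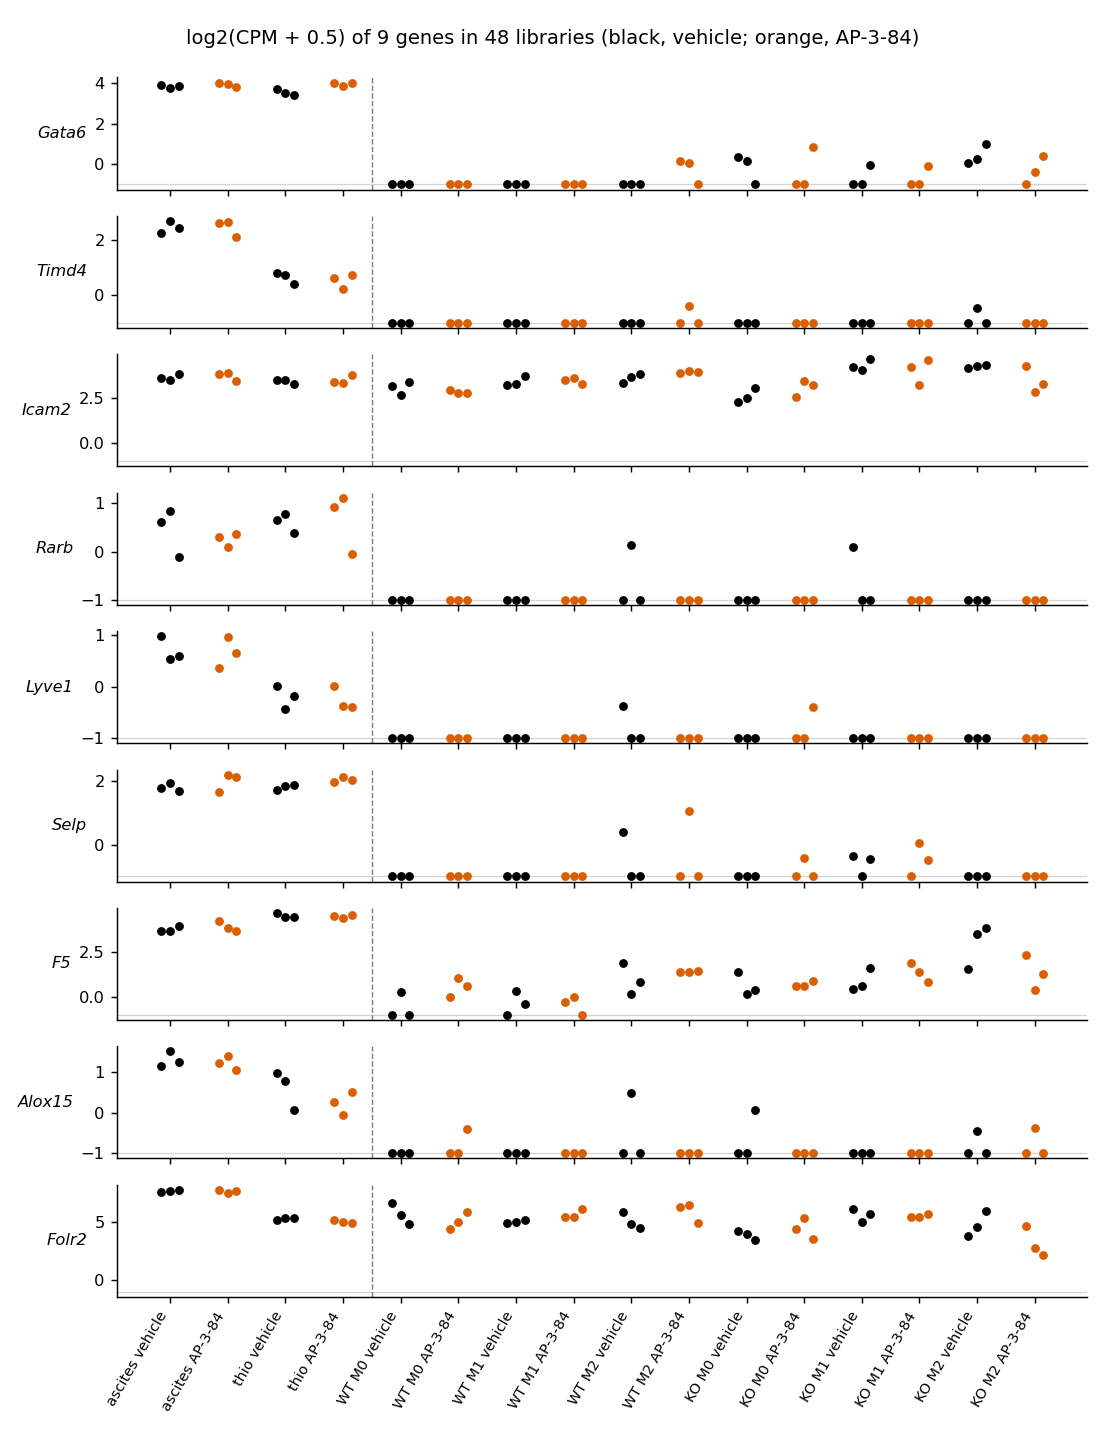
Points are log2(CPM + 0.5) of the 9 genes in 48 libraries, with vehicle in black and AP-3-84 in orange, and a grey line at the value of 0 counts. A dashed line separates the 12 peritoneal libraries, where all 9 genes are above 0, from the 36 bone marrow-derived libraries, where 6 of the 9 are mostly at 0 and Icam2, F5 and Folr2 are not.

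Over the 16 group means of log2(CPM + 0.5), the 9 genes did not share 1 pattern. These correlations describe points that share libraries and, within peritoneal and marrow-derived sets, depth, and carry no p. For Gata6, Timd4, Rarb, Lyve1, Selp and Alox15 the marrow-derived means are at or near 0 counts. High r among these genes is thus largely set by the step between the peritoneal and marrow-derived groups. Timd4 and Lyve1 were most alike (Pearson r = 0.988), and Alox15 was close to both (0.957 and 0.963). Gata6 correlated with Selp at 0.947 and with Rarb at 0.923. Icam2 stood apart from the rest, with r from 0.009 (Alox15) to 0.317 (F5), and Folr2 lay between, with r of 0.738 to Timd4 and 0.329 to F5.

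Among 12938 genes compared, the closest to Timd4 were Gm37350 (r = 0.993) and Cxcl13 (0.992), and the same genes were closest to Lyve1, with Cxcl13 at 0.986 and Gm37350 at 0.985. The closest to Gata6 were D10Wsu102e and Gm38947 (0.986 each), and to Rarb they were Gm36634 (0.984) and 9030607J07Rik (0.983). Selp was closest to the olfactory receptor genes Olfr52 and Olfr1124 (0.981 each), and Alox15 to the prostacyclin synthase gene Ptgis (0.97) and Olfr1388 (0.968). F5 was closest to Tmod1 (0.967) and Alms1 (0.961), Icam2 to Slc25a25 (0.943) and Gm13166 (0.913), and Folr2 to the inhibitory receptor gene Lair1 (0.884) and Skp1a (0.87).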

How the data were processed

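The deposited table holds raw counts per gene and library, whole numbers by its values. The submitters' processing notes name RSEM, Bowtie2 and DESeq2 with no role or version. No source used here gives the genome build, annotation, use of strand or any molecular identifiers. Intervals and floors cover counting error only. Per the labels' protocols, 100 ng of RNA per sample was sequenced as single reads of 75 bases.

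Libraries were grouped by titles and descriptions. The genotype field calls all bone marrow-derived libraries wild-type, whereas the other labels and the design text tell p53 knockout from wild-type ones. Of 51789 gene IDs, 51596 had a symbol. Counts were tested with edgeR 4.0.16 (R 4.3.3): quasi-likelihood test, TMM scaling, filterByExpr by group, 1 mean per group, and Benjamini-Hochberg adjustment over all genes tested, two-sided. The 12 peritoneal libraries (16955 genes) and the 36 bone marrow-derived libraries (11779 genes) were fitted apart. Peritoneal against marrow-derived contrasts used all 48 (13815 genes). CPM used TMM factors over all 48 libraries (0.854 to 1.12).

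The members and the lists were chosen with earlier results of these data known. The rule named all 9 members, up to 3 rises and 3 falls per list (average log2 CPM of at least 1, libraries not overlapping), and the 2 genes most like each member. The genes Trp53 and Ccng1 were named besides, as a check of genotype. Alternatives were other scalings, no filter, DESeq2 1.42.0, a replicate block, other sets of libraries, a fold threshold and leaving out each library. Same-numbered wild-type M2 and M0 vehicle libraries deviated together from their group means (correlations from 0.138 to 0.277). These correlations are weak, and no label states a pairing. The script was tested on simulated data. Coordinates came from GENCODE M21 (GRCm38), promoters from RefSeq (GRCm38.p6).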

Additional observations from a re-analysis of the deposited data

Results flagged for a closer look

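The difference of Folr2, the folate receptor β gene, between M1 and M0 vehicle cells was itself different between p53 knockout and wild-type bone marrow-derived macrophages, by a test of that difference chosen after its values were seen. It was the only one called of 15 pairs of 3 genes and 5 such differences between the genotypes. For M2 against M0 cells the Folr2 changes differed by 1.75 (edgeR adjusted p = 0.134). In knockout cells M1 was above M0 by 1.70 on the log2 scale (edgeR adjusted p = 0.0308), and in wild-type cells the log2 fold change was −0.79 (edgeR adjusted p = 0.41). The 2 changes differed by 2.49 (SE 0.862, edgeR adjusted p = 0.041), and 20.7% of all genes tested were called in this comparison. The call was lost in 9 of 12 analyses that left out 1 M0 or M1 vehicle library, with values from 1.85 to 2.83 and adjusted p from 0.0251 to 0.159, the lowest value being that without wild-type M0 library 1, which was at 97.6 CPM beside 45.5 and 27.7 CPM in the other two. It was kept without wild-type M0 library 2 or 3 and without knockout M1 library 2, and lost with the replicate block (2.41, adjusted p = 0.055). Between the genotypes, Folr2 in knockout minus wild-type cells was −1.95 in M0 (edgeR adjusted p = 0.0186). In M1 cells it was 0.54 and not called (edgeR adjusted p = 0.605), so the 2.49 comes mostly from the M0 libraries.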

How the results depend on the processing

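Timd4 and Folr2 kept their calls in ascites against thioglycollate macrophages under every alternative run, in vehicle and in AP-3-84 libraries, and F5 lost its own in the fit of all 48 libraries (adjusted p = 0.108 in vehicle and 0.252 in AP-3-84 libraries) and, by construction, where log2 fold changes of 1 or more in size were required. The number of the 9 genes called in vehicle libraries was 5, and it was 2 with all 48 libraries in one fit, 3 with no filter on low counts, 3 with log2 fold changes of 1 or more in size, and 3 to 5 when 1 library was left out. In AP-3-84 libraries it was 5, and 2 with all 48 libraries in one fit, 3 with only the libraries compared, and 3 to 5 when 1 library was left out. Against wild-type M0 cells, the count with no filter was 8 instead of 5 in ascites and 7 instead of 4 in thioglycollate macrophages. Over all genes, 9540 instead of 7938 and 9992 instead of 8531 were called. All of these member counts include Gata6, Timd4 and Selp, whose calls were not counted above, so they are not read as a result. Over the 13 bone marrow-derived comparisons the count with no filter was 12 instead of 6, and 4 to 8 when 1 library was left out. The cause of these moves was not tested, except that more genes are tested without the filter.

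The sign changed only in values that were not called. With median-ratio size factors and with DESeq2, the log2 fold change of Selp was −0.02 in vehicle, −0.01 in AP-3-84 libraries and 0.01 in the difference of responses. In the fit of all 48 libraries it was −0.02 for Selp in vehicle and −0.03 in AP-3-84 libraries, and −0.02 for Gata6 in AP-3-84 libraries. The response to AP-3-84 in ascites became −0.03 for Timd4 with total counts only and 0.02 for Lyve1 with the replicate block. Leaving out 1 library gave, in ascites against thioglycollate, −0.46 to 0.22 for Rarb and −0.06 to 0.1 for Selp in vehicle, and −0.04 to 0.07 for Gata6 and −0.09 to 0.18 for Selp in AP-3-84 libraries. It gave, for AP-3-84 in ascites, −0.08 to 0.17 for Timd4, −0.27 to 0.2 for Lyve1, −0.2 to 0.05 for Alox15 and −0.1 to 0.03 for Folr2. For AP-3-84 in thioglycollate macrophages it gave −0.33 to 0.05 for Timd4, −0.08 to 0.16 for Icam2, −0.13 to 0.57 for Rarb, −0.48 to 0.16 for Lyve1 and −0.08 to 0.04 for F5. For the difference of responses it gave −0.04 to 0.35 for Timd4, −0.05 to 0.19 for Icam2, −0.2 to 0.45 for Lyve1 and −0.11 to 0.17 for Selp, and for thioglycollate against wild-type M0 cells −0.93 to 0.03 for Folr2.

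Replicate numbers were shared between groups, but outside wild-type M2 against M0 same-numbered libraries did not all deviate together (correlations from −0.381 to 0.45), so there they share only a number. With the replicate block Lyve1 lost its call in vehicle libraries (1.64, adjusted p = 0.0587). Counts of all genes called moved by over 1.5 times: in ascites against thioglycollate from 5716 to 3252 in vehicle and from 6234 to 3540 in AP-3-84 libraries with all 48 in one fit, and to 2352 and 2579 with log2 fold changes of 1 or more in size. For AP-3-84 they were 303 in ascites (112 to 519), 733 in thioglycollate macrophages (52 to 1075 over the alternatives) and 20 for the difference (2 to 155). In marrow-derived cells DESeq2 called 50 genes instead of 17 for AP-3-84 in wild-type M0, 28 instead of 2 in wild-type M1, 263 instead of 142 in wild-type M2 and 71 instead of 6 in knockout M2 cells, and 0 in knockout M1 cells by both tools. Against wild-type M0 cells they were 7938 in ascites and 8531 in thioglycollate macrophages, and 5132 and 5659 with log2 fold changes of 1 or more in size. For the difference of responses, the fit of only the libraries compared equals the one reported. At 4 to 26 counts per library, Lyve1 was limited by depth, and 6 of the 9 genes were at or near 0 counts in marrow-derived libraries.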
